A study of Mus musculus with 4 samples.

Results

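The 10 genes described here encode histone variants known from germ cells or other cells of the mouse testis: the testis linker histones Hist1h1t and H1fnt, the somatic linker histones H1fx and H1f0, the testis core histones Hist1h2ba and Hist1h2aa, the macroH2A genes H2afy and H2afy2, and the H3.3 genes H3f3a and H3f3b. They were found by symbol, 1 row each, among 55335 rows of the deposited count table. The material was testis RNA from mice at postnatal day 14, with 2 libraries of genotype Znhit1_KO and 2 of genotype CTRL, and poly(A) RNA was selected before sequencing. The 4 libraries carry no treatment label. The labels and design text do not state how or in which cells Znhit1 was disrupted, nor the strain or the exact genotype of the controls. The series' design text names germ cells as the material, while the sample labels name testis and testis cells. Each group of 2 is described as independent biological replicates. The count values were treated as estimated counts and not as numbers of reads.

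Nucleosomes are built from core histones and bound between cores by a linker histone of the H1 family. Most core and H1 histones come from clustered genes that are transcribed in S phase, and their mRNAs end in a stem-loop without a poly(A) tail, so that poly(A) selection recovers few of them. Replacement variants such as H3.3 and macroH2A come from genes outside the clusters, with introns and polyadenylated mRNAs. Male germ cells exchange somatic histones for testis forms during meiosis, and spermatids later exchange nearly all histones for transition proteins and protamines. ZNHIT1, the product of the disrupted gene, is a subunit of the SRCAP complex, which places another variant, H2A.Z, into nucleosomes.

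The members with the largest differences, Hist1h2ba and Hist1h2aa, are divergent neighbours on chromosome 13, and their upstream sequence is shown for that reason. Hist1h2ba (ENSMUSG00000050799.3) lies on the minus strand at 23933773 to 23934156 and Hist1h2aa (ENSMUSG00000060081.1) on the plus strand at 23934462 to 23934851 (mm10, GENCODE M21), with 305 bases between the 2 gene models. Both are single-exon coding genes, and their models, of 384 and 390 bases, hold coding sequence only. The upstream stretch of Hist1h1t (ENSMUSG00000036211.4, chromosome 13, 23695814 to 23696725, plus strand, 1 exon), the testis linker histone in the same histone cluster, is shown beside it. The sequences are from RefSeq (GRCm38.p6), 5′ to 3′ on the strand of the named gene. They lie at chr13:23934245-23934406 for Hist1h2ba, ended at its TATAAA match, and chr13:23695561-23695810 for Hist1h1t. Capitals mark matches on either strand to the CCAAT box, to the TATA box spelled TATAAA, to the octamer of H2B promoters, ATTTGCAT, or to the H1 box, which reads AAACACA.
Hist1h2ba: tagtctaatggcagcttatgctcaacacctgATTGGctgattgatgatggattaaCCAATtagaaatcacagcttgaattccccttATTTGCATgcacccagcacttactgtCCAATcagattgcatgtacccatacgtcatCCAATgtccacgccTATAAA
Hist1h1t: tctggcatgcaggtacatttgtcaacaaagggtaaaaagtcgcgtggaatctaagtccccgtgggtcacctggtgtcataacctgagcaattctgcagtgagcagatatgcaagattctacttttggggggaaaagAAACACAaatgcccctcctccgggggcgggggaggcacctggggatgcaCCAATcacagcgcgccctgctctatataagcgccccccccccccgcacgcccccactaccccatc

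Of the 250 bases before each RefSeq start, Hist1h2ba and Hist1h2aa share 220, so a match in the shared stretch stands before both genes. Both windows held 4 CCAAT matches and 1 octamer. Hist1h2ba had 1 TATAAA match and Hist1h2aa had 2. The window of Hist1h1t held 1 CCAAT and 1 H1 box and no octamer. The window of H3f3b, the replacement histone gene with the highest level, held 4 CCAAT, 1 octamer and 1 TATAAA, whereas that of H3f3a, which encodes the same protein, held 1 CCAAT and neither an octamer nor a TATAAA. None of the 4 windows of H1fnt, H1fx, H2afy and H2afy2 held any of these motifs, and that of H1f0 held only AACGG. No member's window held the cyclic AMP response element TGACGTCA or the MYB motif CCGTTA, and the shorter MYB core AACGG, searched as well, occurred once each before H1f0 and H3f3b. Over all 32817 windows of this length, 33.8% held CCAAT, 12.4% TATAAA, 1.60% the octamer, 1.55% TGACGTCA, 2.17% CCGTTA, 14.5% AACGG and 6.25% the H1 box. The H1 box, which also matched once each in the windows of Hist1h2ba (past the printed stretch), Hist1h2aa and H3f3a, was added to the search after the sequences had been read. The windows of H2afy, H2afy2, H3f3a and H3f3b lie inside the GENCODE gene models, and that of H1fx lies partly inside. The matches found for these genes therefore depend on the start used. The window of Hist1h2ba adjoins its GENCODE model, which holds coding sequence only, so any untranslated leader would lie inside the window. Its TATAAA match lies 94 bases from the start used. A match is a description of letters, not of a bound site.

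The estimated counts summed to between 129531714 and 157790457 per library. Znhit1, the targeted gene, stood at 17.3 CPM (CPM being the estimated count divided by the TMM-scaled library size) in CTRL replicate 1 and 31.95 in CTRL replicate 2, against 3.15 and 2.14 CPM in the Znhit1_KO libraries, so its level followed the labels. Markers of testis cell types were present, and some differed between genotypes. All 12 pachytene spermatocyte markers had a negative log2 change, with a median of -1.73, and summed to 1477 and 2927 CPM in the CTRL libraries against 792.3 and 1148 in the Znhit1_KO libraries (pairs of values give replicate 1 first throughout). The median was -0.93 without CTRL replicate 2, the library with the highest sum. All 12 Sertoli cell markers had a positive one, with a median of 0.46, and a sum of 6047 and 6466 CPM in CTRL libraries against 8544 and 7507 in Znhit1_KO ones. The 7 spermatogonial markers had a median of 0.0096, and the 7 markers of leptotene to zygotene spermatocytes, which follow them, one of -0.30. Leydig cell, macrophage and endothelial markers had medians of 0.40, 0.67 and 0.26 and peritubular myoid markers one of -0.059. With 1 library left out, the medians ranged from 0.30 (without Znhit1_KO replicate 1) to 0.45 for the Sertoli list, from -0.036 to 0.064 for the spermatogonial list and from -0.55 (without Znhit1_KO replicate 2) to -0.28 for the leptotene to zygotene list. The smaller lists moved more: Leydig from 0.13 (without CTRL replicate 1) to 0.86 (without CTRL replicate 2), macrophage from 0.21 (without CTRL replicate 1) to 0.97 (without Znhit1_KO replicate 1), endothelial from 0.077 (without Znhit1_KO replicate 2) to 0.31 and peritubular myoid from -0.36 (without Znhit1_KO replicate 1) to -0.016 (without Znhit1_KO replicate 2). Round spermatid markers summed to at most 7.61 CPM in any library. In bulk tissue, fewer cells of a type and less RNA per cell cannot be told apart, and the part of cell composition in the differences below was not tested.

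None of the histone variants passed the test. The edgeR quasi-likelihood test with Benjamini-Hochberg adjustment over all 24116 genes called 0 of the 9 tested members and 0 genes overall (0.0% lower, 0.0% higher). Adjusted p ranged from 0.483 to 0.998 among the members, and 0 had an unadjusted p under 0.05, against 7.75% of all genes lower and 2.99% higher at that level. DESeq2 called 0 members too (adjusted p 0.470 to 0.9996), while over all genes it called 3.86% lower and 0.46% higher. The authors' deposited table marks 0 of the 9, against 3.22% of its genes marked down and 0.277% marked up. In that table the adjusted p of the 9 ranged from 0.493 to 0.9996. Its mark is not set by adjusted p alone: the gene Zfp473, at 0.0236 with a log2 change of -0.95, is unmarked there. H1fnt did not pass the filter on low counts. With 2 libraries a group, a change of the size seen here may miss the threshold, and a missed threshold does not show equal levels. Larger changes missed it too: Znhit1 itself, with a log2 change of -3.22, had an edgeR adjusted p of 0.264, the lowest value over all genes. Of the 9 members, 6 had a positive log2 change (53.1% of all genes did) and 3 a negative one (46.9%), with a median of 0.32, beside 0.032 over all genes tested. For 4 members, Hist1h2ba, Hist1h2aa, H1f0 and H2afy2, both Znhit1_KO libraries lay above both CTRL libraries in CPM, and for 0 members below. Over all genes such separation occurred for 21.8% in the higher and 21.3% in the lower direction.

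**Figure D1:**
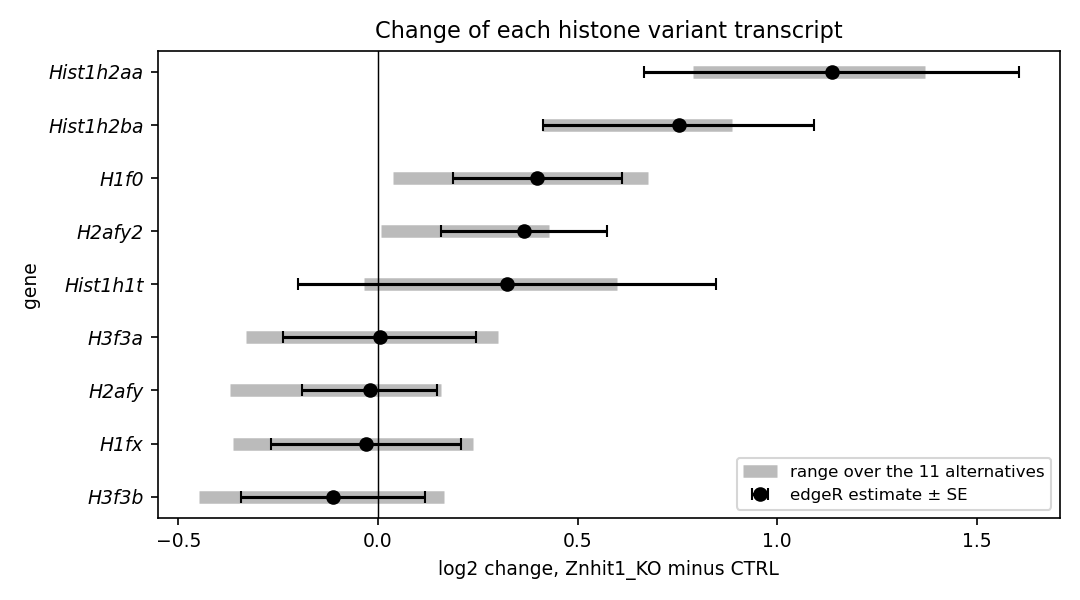
Log2 change of the 9 tested histone variant transcripts, Znhit1_KO minus CTRL, on the x axis, with 1 gene per line. Points and bars are the edgeR estimate and its SE (2 libraries a group), and grey bands span the 11 alternative settings. The bands of Hist1h2aa and Hist1h2ba stay to the right of 0, from 0.79 and 0.41 upward, and those of Hist1h1t, H3f3a, H3f3b, H2afy and H1fx cross it.

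The testis core histones showed the largest differences. Hist1h2ba encodes TH2B, the testis form of H2B that replaces the somatic protein in spermatocytes. Its estimated counts were 149 and 169 in the CTRL libraries, against 294 and 308 in the Znhit1_KO libraries. The same libraries stood at 1.10 and 1.32 CPM and at 1.86 and 2.22 CPM. CTRL averaged 1.21 ± 0.151 CPM and Znhit1_KO 2.04 ± 0.253 CPM (SD, n = 2), without overlap. The log2 change was 0.75 (SE 0.339), with an edgeR adjusted p of 0.512 and an unadjusted p of 0.0736.

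Hist1h2aa encodes TH2A, the testis form of H2A and the usual partner of TH2B. Its estimated counts were 35 and 45 in CTRL and 105 and 94 in Znhit1_KO, or 0.259 and 0.350 CPM against 0.665 and 0.677 CPM. Again both Znhit1_KO libraries exceeded both CTRL libraries, with a ratio of mean CPM of 2.201, against 1.69 for Hist1h2ba. The log2 change was 1.14 (SE 0.469; edgeR adjusted p of 0.483, unadjusted p of 0.0566). Among all genes tested it lay at the 96.4th percentile of log2 change, and that of Hist1h2ba at the 91.7th. On the authors' TPM scale, which allows for length, Hist1h2ba stood 4.41 and 3.83 times above Hist1h2aa in CTRL and 2.86 and 3.35 times above it in Znhit1_KO. Hist1h2aa made up 18.5% and 20.7% of the pair's TPM in CTRL and 25.9% and 23.0% in Znhit1_KO. These shares did not overlap, and the exact permutation test gave a two-sided p of 0.333, the smallest that 2 against 2 libraries allow. The difference of the shares rests on 35 to 105 estimated counts of Hist1h2aa per library.

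The levels of the pair were also set against the marker lists. Measured against the mean log2 CPM of the 12 pachytene markers, all 9 tested members were higher in Znhit1_KO without overlap, from 1.68 for H3f3b to 2.52 for Hist1h2ba and 2.89 for Hist1h2aa, so most of this difference is that of the list itself and is not particular to the pair. Against the leptotene to zygotene markers the differences were 1.10 and 1.47, and against the spermatogonial markers 0.69 and 1.05, with no overlap between groups for either gene. This separation is not particular to the pair. Of the 9, only H1fx and H3f3b overlapped against the leptotene to zygotene list. H1f0 and H2afy2 were also separated against the spermatogonial list (0.37 and 0.31). Against the Sertoli markers the differences of the pair were 0.29 and 0.66, with overlap for Hist1h2ba and none for Hist1h2aa. When the libraries were scaled by the Sertoli list in the edgeR fit, which moved the median of all genes by -0.36, the log2 change was 0.41 (SE 0.398) for Hist1h2ba and 0.79 (SE 0.535) for Hist1h2aa.

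**Figure D2:**
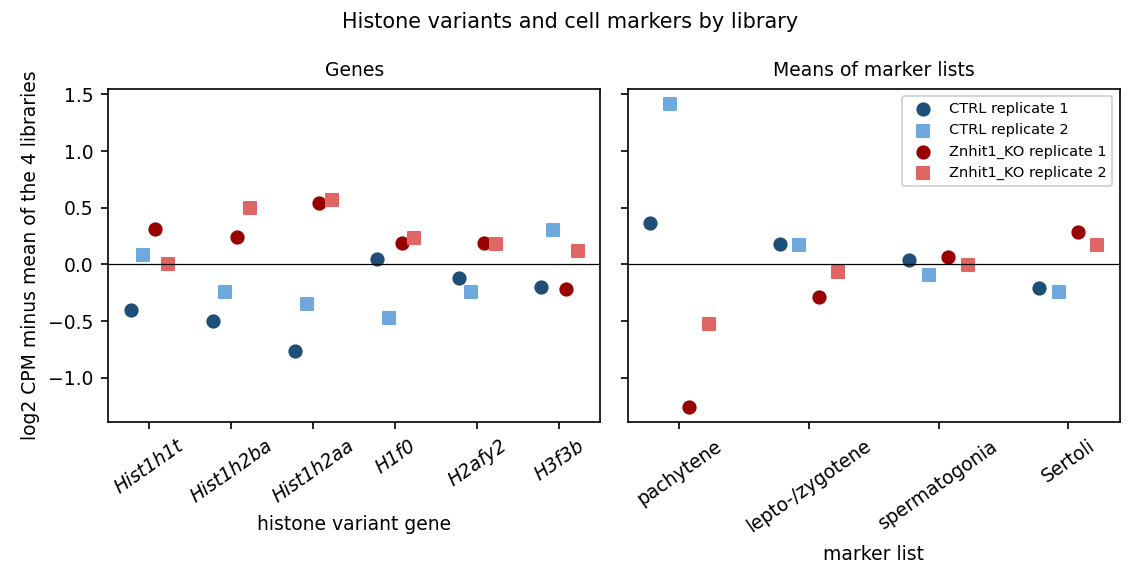
Level of 6 histone variant transcripts (left) and the mean of 4 marker lists (right) in each library, as log2 CPM minus the mean of the 4 libraries, with 1 point per library. Hist1h2ba and Hist1h2aa are high in both Znhit1_KO libraries, while the pachytene mean runs from 1.41 in CTRL replicate 2 to -1.25 in Znhit1_KO replicate 1.

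The testis linker histones were scarce in these poly(A)-selected libraries. Hist1h1t encodes H1t, which enters chromatin in pachytene spermatocytes. It had 37 and 50 estimated counts in CTRL and 73 and 51 in Znhit1_KO, or 0.274 and 0.389 CPM against 0.462 and 0.367 CPM. The lowest library was CTRL replicate 1 and the highest Znhit1_KO replicate 1, and the groups overlapped in CPM. In TPM they did not overlap, at 0.772 and 0.971 in CTRL and 1.28 and 1.01 in Znhit1_KO. The log2 change of 0.32 (SE 0.523) was smaller than its error (edgeR adjusted p of 0.864). Set against the Sertoli list it was lower in Znhit1_KO by 0.14 (log2), with overlap. At this depth a modest difference in either direction was not detectable. H1fnt (ENSMUSG00000048077.6, chromosome 15, 98255986 to 98257293), the linker histone of spermatids also called H1T2, had 0 estimated counts in all 4 libraries, which allows up to 0.0234 CPM in the library with the highest limit (3 counts). That limit covers counting error only and is too low to the extent that estimated counts exceed reads.

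Among the somatic linker histones, H1f0, the variant that accumulates in differentiated and non-dividing cells, stood at 77.9 and 54.5 CPM in CTRL and at 85.9 and 88.7 CPM in Znhit1_KO. The groups did not overlap, but CTRL replicate 2 was the library that stood apart, and CTRL replicate 1 lay close to the Znhit1_KO libraries. The log2 change was 0.40 (SE 0.211; edgeR adjusted p of 0.568), which became 0.17 with CTRL replicate 2 left out and 0.68 with CTRL replicate 1 left out. CTRL replicate 2 was also the library with the highest pachytene marker sum. H1fx, the divergent linker histone H1.X, stood at 76.8 and 107.8 CPM in CTRL and 77.9 and 103.1 CPM in Znhit1_KO. Its values overlapped almost fully, with both replicate 2 libraries above both replicate 1 libraries, and its log2 change was -0.029 (SE 0.238). The antisense gene Gm5577 overlaps the exon of H1fx and stood at 7.56 to 19.0 CPM. As a share of the TPM of the 3 detected linker histones, H1f0 made up 37.4% and 23.0% in CTRL and 39.3% and 33.7% in Znhit1_KO, with overlap, and Hist1h1t at most 0.472% in any library. Hist1h1t is a clustered gene, so its share describes polyadenylated RNA only.

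The macroH2A genes encode H2A variants with a large additional domain, found on the inactive X chromosome and on the silenced sex chromosomes of spermatocytes. H2afy, which encodes macroH2A1, stood at 126.8 and 160.1 CPM in CTRL and 143.3 and 139.6 CPM in Znhit1_KO. Both Znhit1_KO values lay between the CTRL values, and the log2 change was -0.020 (SE 0.169; edgeR adjusted p of 0.979). H2afy2, which encodes macroH2A2, stood at 9.45 and 8.65 CPM in CTRL and 11.7 and 11.6 CPM in Znhit1_KO. The groups did not overlap, with a log2 change of 0.36 (SE 0.208; edgeR adjusted p of 0.592). By TPM, H2afy stood 17.0 and 23.1 times above H2afy2 in CTRL and 15.8 and 15.3 times above it in Znhit1_KO. H2afy2 made up 5.56% and 4.16% of the pair in CTRL libraries and 5.95% and 6.15% in Znhit1_KO ones. That is a difference of 1.19 percentage points, with an exact permutation p of 0.333 (two-sided), which is the smallest possible. The difference was 0.488 percentage points with CTRL replicate 2 left out and 1.89 with CTRL replicate 1 left out. Against the Sertoli list mean, H2afy2 was lower in Znhit1_KO by 0.086 (log2), with overlap, and H1f0 by 0.030, with overlap. The same difference was -0.46 for H2afy and -0.55 for H3f3b, both without overlap. It was -0.47 for H1fx and -0.43 for H3f3a, both with overlap. With Sertoli list scaling the log2 changes of H2afy2 and H1f0 were 0.0077 and 0.038. H2afy2 shares exonic bases with Aifm2 on the other strand (13.2 to 21.2 CPM), and without stated strandedness the reads of the 2 genes could not be told apart there.

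H3.3, the replacement form of histone H3 that is deposited outside S phase and on the sex chromosomes of spermatocytes, is encoded as the same protein by H3f3a and H3f3b. H3f3b stood at 748.0 and 1062 CPM in CTRL and 743.0 and 932.0 CPM in Znhit1_KO, and H3f3a at 193.3 and 280.9 CPM against 207.0 and 268.5 CPM. For both genes the replicate 2 library of each group was the higher one and the groups overlapped. The log2 changes were -0.11 (SE 0.230) for H3f3b and 0.0041 (SE 0.241) for H3f3a, both smaller than their errors. By TPM, H3f3b stood 4.21 and 5.01 times above H3f3a in CTRL and 4.13 and 4.35 times above it in Znhit1_KO. H3f3a made up 19.2% and 16.6% of the pair in CTRL and 19.5% and 18.7% in Znhit1_KO. These shares overlapped, with a difference of 1.17 percentage points and an exact permutation p of 0.667 (two-sided). Computed from counts in place of TPM, without allowance for length, the shares were 20.5% and 20.9% against 21.8% and 22.4%, which did not overlap (difference 1.36, exact permutation p of 0.333). The antisense RNA H3f3aos, which overlaps exons of H3f3a, stood at 2.92 to 4.43 CPM.

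Ordered by mean TPM in CTRL, the levels were 1115 ± 183.7 for H3f3b, 241.3 ± 10.3 for H3f3a, 202.6 ± 12.0 for H2afy, 185.1 ± 26.8 for H1fx, 80.4 ± 27.4 for H1f0, 10.3 ± 1.61 for H2afy2, 7.69 ± 0.248 for Hist1h2ba, 1.88 ± 0.247 for Hist1h2aa and 0.871 ± 0.141 for Hist1h1t (SD, n = 2). H2afy and H1fx did not differ beyond their spread, and in Znhit1_KO replicate 2 H1fx was the higher. H2afy2 and Hist1h2ba lay close together, at 1.52 and 1.16 times in CTRL and 1.11 and 0.926 times in Znhit1_KO. The other neighbours kept their order in all 4 libraries. TPM of the clustered genes describes the polyadenylated fraction only.

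**Figure D3:**
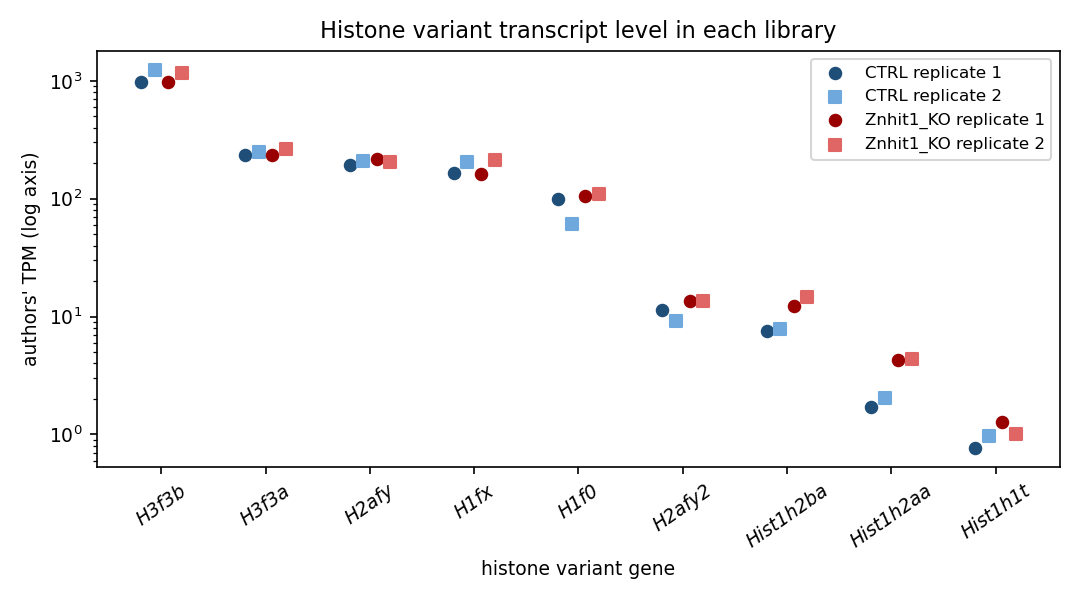
TPM as deposited by the authors (log axis) of the 9 histone variant genes with a value, 1 point per library, ordered by CTRL mean. H3f3b lies highest, at a CTRL mean of 1115 TPM, and Hist1h1t lowest, at 0.871 TPM. Hist1h2ba, Hist1h2aa, H1f0, H2afy2 and Hist1h1t have both Znhit1_KO points above both CTRL points. For Hist1h1t the groups overlap in CPM.

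Other histone genes gave a background to these values. For the counts at an unadjusted edgeR p under 0.05 below, the shares over all genes were 7.75% lower and 2.99% higher. Of 61 replication-dependent histone genes, 56 were tested: 39 had a positive and 17 a negative log2 change, the median was 0.46 beside 0.032 over all genes, and edgeR called 0 adjusted over all genes (4 at an unadjusted p under 0.05). The groups were separated with Znhit1_KO higher for 17 of them (30.4%, beside 21.8% of all genes) and with Znhit1_KO lower for 5 (8.93%, beside 21.3%). They summed to 57.1 and 47.3 CPM in the CTRL libraries and to 80.7 and 65.7 CPM in the Znhit1_KO libraries, with no overlap. The most abundant, Hist2h2aa1 and Hist1h2bc, averaged 10.2 ± 0.755 and 9.57 ± 2.03 CPM in CTRL libraries against 14.6 ± 6.01 and 13.3 ± 5.30 CPM in Znhit1_KO ones (SD, n = 2), both with overlap. Hist1h4a had 2 and 1 estimated counts in CTRL and 48 and 56 in Znhit1_KO; the authors' deposited table marks it up (adjusted p 0.00705), DESeq2 gave an adjusted p of 0.00875 and edgeR one of 0.264. Hist1h4h, at 0.141 and 0.218 CPM in CTRL and 0.627 and 1.02 CPM in Znhit1_KO, is the second gene that the authors' deposited table marks up (adjusted p 0.0468), while DESeq2 here gave an adjusted p of 0.0566 and edgeR one of 0.319. H4 genes are near-identical copies, so the division of reads among them is uncertain. Hist2h2aa2, in the same list, had 8 and 0 estimated counts in CTRL and 790 and 18 in Znhit1_KO. The division of reads between Hist2h2aa1 and Hist2h2aa2 was not tested. The overlap stated for Hist2h2aa1 therefore holds for that gene taken alone. The list's median was 0.15 without Znhit1_KO replicate 1 and 0.10 with Sertoli list scaling.

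Of 22 other histone genes, listed here as variants, 12 were tested and 9 had 0 counts in all libraries, most of them the spermatid H2A variants of the H2al and H2afb groups. The 12 include Hist3h2a, Hist3h2ba and Hist4h4 (log2 changes of 0.80, 0.52 and 0.35). These carry cluster symbols and are usually counted as replication-dependent, so the list is not of variants alone. The 12 had a median of 0.30, with 9 positive and 3 negative, and 5 higher and 1 lower without overlap (75.0% positive, 41.7% higher and 8.33% lower, beside 53.1%, 21.8% and 21.3% of all genes); edgeR called 0, with 2 at an unadjusted p under 0.05. H2afx, the H2A form phosphorylated at DNA breaks and over the sex chromosomes, stood at 195.6 and 179.8 CPM in CTRL and 229.0 and 237.5 CPM in Znhit1_KO (log2 change 0.31, SE 0.140). H2afj, another replacement H2A, stood at 6.79 and 6.38 CPM against 13.4 and 10.3 CPM (log2 change 0.85, SE 0.242). DESeq2 called H2afj (adjusted p 0.0468), whereas edgeR gave an adjusted p of 0.340 and the authors' deposited table one of 0.0607, unmarked. Hist3h2a stood at 17.1 and 11.4 CPM against 23.7 and 25.6 CPM (0.80, SE 0.255), without overlap. H2afz, an H2A.Z gene, overlapped between groups (-0.14, SE 0.285). With Sertoli list scaling the median of these 12 was -0.046, and without Znhit1_KO replicate 2 it was 0.11.

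The 3 lists of genes that handle histones had negative medians with all 4 libraries, and that of the chaperones turned positive without CTRL replicate 2. Sertoli list scaling, which took the median of all genes to -0.32, gave -0.52 for mRNA processing, -0.38 for chaperones and -0.66 for the transition list. The 12 histone mRNA processing genes had 1 positive and 11 negative changes, a median of -0.17, and 7 lower in both Znhit1_KO libraries (58.3%, beside 21.3% of all genes); edgeR called 0 and 2 had an unadjusted p under 0.05. Leaving out CTRL replicate 1 gave a median of -0.31, and leaving out either Znhit1_KO library gave -0.27 (replicate 1) or -0.29 (replicate 2). Zfp473, a zinc finger protein of the histone pre-mRNA cleavage machinery, stood at 16.8 and 13.3 CPM in CTRL and 8.65 and 7.02 CPM in Znhit1_KO (-0.94, SE 0.244; edgeR adjusted p of 0.323, DESeq2 0.0169). Cstf2t, the testis form of a cleavage stimulation subunit, stood at 79.7 and 105.7 CPM against 57.6 and 61.4 CPM (-0.64, SE 0.190). Slbp, which binds the histone stem-loop, overlapped (-0.11, SE 0.209), and so did Sympk (-0.18, SE 0.166). The 26 histone chaperones had a median of -0.042, with 5 lower (19.2%, beside 21.3% of all genes) and 2 higher (7.69%, beside 21.8%) without overlap and 0 called by edgeR (1 at an unadjusted p under 0.05). Its median was 0.041 without CTRL replicate 2, -0.17 without CTRL replicate 1 and -0.20 without Znhit1_KO replicate 2. Nasp, a chaperone of H3 and linker histones, stood at 393.7 and 413.3 CPM in CTRL and 297.3 and 327.1 CPM in Znhit1_KO (-0.37, SE 0.144). Supt16, a subunit of FACT, had a log2 change of -0.41 (SE 0.174). Npm1 overlapped between groups (-0.053, SE 0.171). Of 18 genes of the histone to protamine transition, 14 were tested, with a median of -0.32. Without overlap, 5 were lower (35.7%, beside 21.3% of all genes) and 3 higher (21.4%, beside 21.8%). The edgeR test called 0 of the 14, and 2 had an unadjusted p under 0.05. The median was -0.046 without CTRL replicate 2. The authors' deposited table marks 1 of them, the germ cell helicase Ddx25, down. Hspa2, also among the pachytene markers, stood at 699.7 and 1225 CPM in CTRL and 447.0 and 592.5 CPM in Znhit1_KO (-0.89, SE 0.310). Kdm3a overlapped between groups (-0.31, SE 0.256). Tnp1, Prm1 and Prm2, the products that take over in spermatids, had at most 20 estimated counts in any library.

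**Figure D4:**
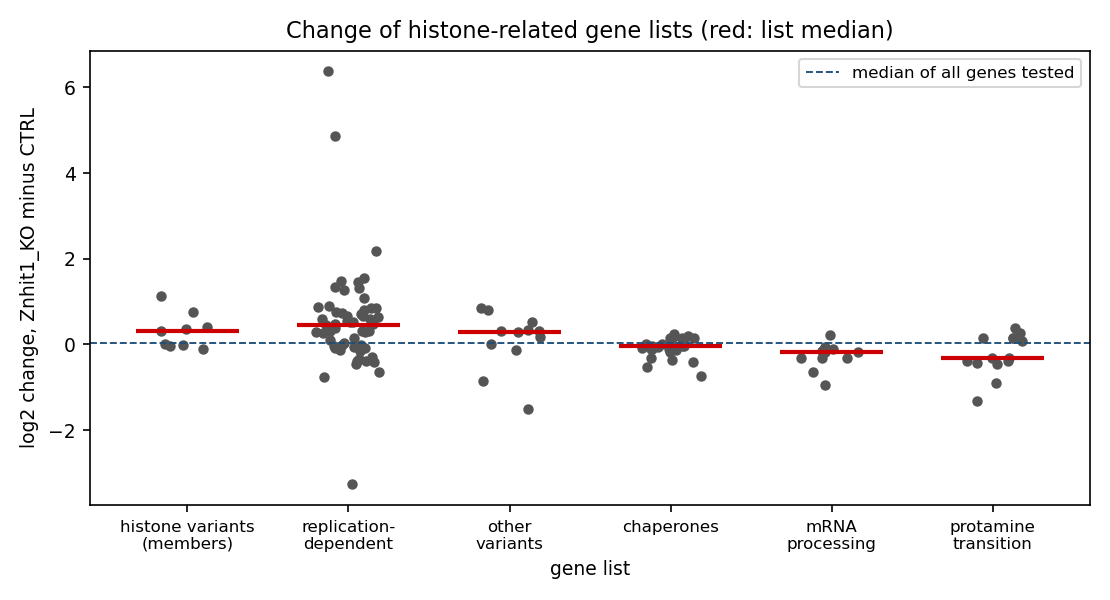
Log2 change, Znhit1_KO minus CTRL, of every tested gene of 6 histone-related lists, 1 point per gene, with red bars for list medians and a dashed line for the median of all genes tested (0.032). The median of replication-dependent histones lies at 0.46 and that of the histone variants at 0.32, while chaperones lie near 0 and the processing and transition lists at -0.17 and -0.32.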

How the data were processed

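The authors deposited a table of estimated counts per gene and library, whole numbers that were used as they stand, and a comparison table with TPM per library, a mean normalised signal, log2 fold changes, Wald scores and p-values, whose units are as given per the file headers and the file's values. Per the submitters' processing notes, the build was mm10 and the tools were DESeq2 1.38.3, StringTie 2.2.1, HISAT2 2.2.1 and cutadapt 2.5; no source used here gives strandedness, annotation or counting settings. In CTRL replicate 1 the count 4 occurred in 1109 genes, against a mean of 736 for the counts 3 and 5. Columns were matched to libraries by letter and number.

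Counts were tested with the quasi-likelihood test of edgeR 4.0.16 (R 4.3.3; TMM, filterByExpr by group, genotype only, adjusted p of 0.05 over 24116 genes); log2 CPM used a prior count of 2, and each SE was derived from the F statistic. The biological coefficient of variation (common) was 0.349. The scripts were checked on simulated counts. Alternatives were DESeq2 1.42.0, limma 3.58.1 (voom), other scalings, no filter, a replicate block and leaving out each library. P-values rest on the spread between these 4 libraries, with the spread of each gene estimated partly from that of other genes. The members and lists were chosen with earlier results of these data known, and no list was tested as a set. The genes named were all members, Znhit1 and, of each histone-related list, the 2 of lowest p, the 2 of highest CPM and those marked by the authors. Tnp1, Prm1, Prm2, Hist2h2aa2 and overlapping genes were named after their values were seen, and Hist3h2ba and Hist4h4 outside this rule. GENCODE M21 gave positions, and RefSeq promoters (GRCm38.p6) matched all 10 members. Protein sequences were not used here.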

Additional observations from a re-analysis of the deposited data

How the results depend on the processing

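The members called stayed at 0 under all 11 alternatives, and Hist1h2ba, Hist1h2aa, H1f0 and H2afy2 kept a positive log2 change in each (0.41 to 0.89, 0.79 to 1.37, 0.038 to 0.68 and 0.0077 to 0.43). Over all genes, calls went from 0 to 1041 with DESeq2 and 2737 with the replicate block, and with 1 library left out ranged from 0 to 754, the latter without CTRL replicate 1. Same-numbered libraries deviated together (r = 0.421 across genes), but the labels tie them by number only; under the block the lowest member adjusted p was 0.107 (H1f0). Sertoli list scaling lowered the median of all genes by 0.36 (from 0.032 to -0.32) and gave -0.034 for Hist1h1t and -0.33 for H3f3a. Total count scaling gave 0.0068 for H1fx and 0.010 for H2afy. For H3f3a DESeq2 and DESeq2's size factors in edgeR both gave -0.0027. With 1 library left out, log2 changes ranged from -0.28 to 0.24 for H1fx, -0.18 to 0.16 for H2afy, -0.24 to 0.30 for H3f3a and -0.35 to 0.16 for H3f3b, so no direction is given for these 4. The H3f3a share difference ranged from -0.0983 to 2.45 percentage points and that of H2afy2 from 0.488 to 1.89. Leaving a library out leaves 1 in its group, assumed to vary like the other. Depth was low for Hist1h1t and Hist1h2aa, at 35 to 105 estimated counts a library, and H1fnt had 0.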
